A study of Sus scrofa with 12 samples.

Results

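The genes described here were 10 markers of hepatic stellate cells, pericytes and smooth muscle cells, namely ACTA2, TAGLN, MYH11, DES, PDGFRB, RGS5, CNN1, MYL9, TPM2 and LRAT. They were taken by gene symbol, and all 10 were among the 31694 genes of the liver mRNA tables. The livers came from pigs of 2 breeds, Jinhua (JH), from China and used for cured ham, and Landrace (LD), a European bacon breed that served as the control group. Each breed had 3 uncastrated males aged 70 days, with 1 mRNA library and 1 small RNA library per pig, and neither group was treated. All fold changes are given as JH over LD, so a negative log2 fold change means a lower level in JH. The labels give no litter, herd or sampling order, and breed cannot be told apart from any husbandry that went with it.

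Most of the liver is hepatocytes, and the cells marked by these genes are a small mesenchymal fraction. Hepatic stellate cells lie between hepatocytes and the sinusoidal endothelium, store retinoids as retinyl esters, and turn into contractile, matrix-producing cells when activated. Pericytes wrap small vessels and depend on platelet-derived growth factor (PDGF) signals from the endothelium. Vascular smooth muscle surrounds the branches of the portal vein and the hepatic artery, and its contractile apparatus is built of smooth muscle actin, myosin, tropomyosin, calponin and transgelin under the control of serum response factor. LRAT, lecithin retinol acyltransferase, makes the retinyl esters and is the quiescent stellate cell marker of the set. In RNA from whole liver, fewer cells of a type and less RNA per cell cannot be told apart.

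The library totals behind the mRNA levels, as recovered from the deposited values, were 5744908 (JH1) to 7914514 (LD3) reads. Which reads the authors counted in these totals was not tested. Levels as RPKM, the read count scaled by gene length and library total, were tested with limma on the log2(RPKM + 0.1) scale for 12993 genes. A gene was called changed at an adjusted p below 0.05 with an absolute log2 fold change above 1, and 177 genes were called lower and 133 higher in JH. RN18S, the gene of an 18S ribosomal RNA, ranged from 1570 RPKM in JH2 to 62257 RPKM in JH3, and its part in the results was not tested.

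Of the 10 markers, 9 passed the filter of at least 0.5 RPKM in at least 3 libraries, and all 9 had a log2 fold change below 0, as did 47.1% of all genes tested. LRAT alone was called lower in JH, while 1.36% of all genes tested were called lower. No marker was called higher by limma, none was higher in JH at an unadjusted p below 0.05, and limma voom on the recovered reads called none higher. ACTA2, TAGLN, PDGFRB and LRAT were lower in JH at an unadjusted p below 0.05, as were 9.51% of all genes. The median log2 fold change of the 9 markers was -0.92 and that of all genes 0.04. For LRAT, PDGFRB and TPM2 all JH libraries lay below all LD libraries, a separation found for 12.5% of all genes. MYH11, the smooth muscle myosin heavy chain and the most specific smooth muscle marker of the set, was listed at 0 in every library. Genes used by every cell, such as B2M and HPRT1, were also listed at 0 in every library, so no level of MYH11 is given.

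**Figure D1:**
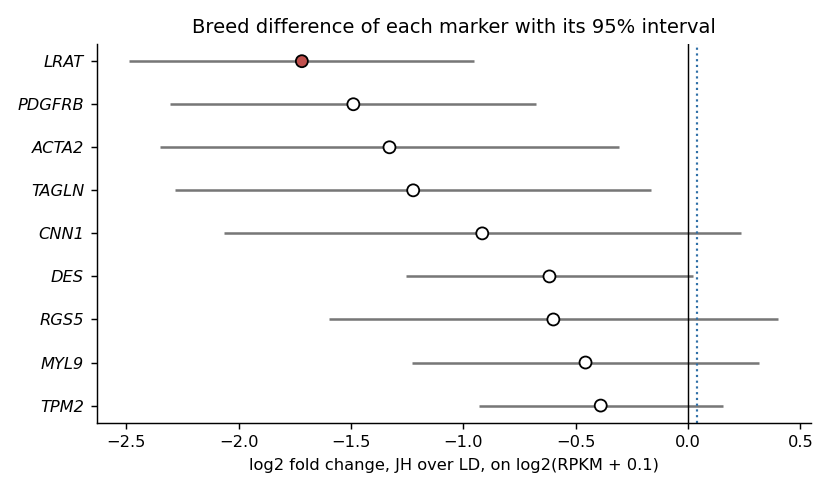
Log2 fold change of JH over LD on the log2(RPKM + 0.1) scale (x axis) for the 9 markers tested (y axis), with 95% intervals from limma as bars, the filled point marking the called gene and the dotted line the median of all genes. LRAT lies farthest from 0 at -1.72 and TPM2 nearest at -0.39, and the intervals of LRAT, PDGFRB, ACTA2 and TAGLN stay below 0.

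LRAT separated the breeds most clearly. Its level was 0.424, 0.512 and 0.564 RPKM in JH1, JH2 and JH3 and 1.99, 1.80 and 1.81 RPKM in LD1, LD2 and LD3. The 3 LD pigs were nearly equal, and the lowest LD level was 3.20 times the highest JH level. The means were 0.50 ± 0.0705 RPKM in JH and 1.87 ± 0.103 RPKM in LD (SD, n = 3 each), a ratio of 3.74. LRAT fell by 1.72 on the log2 scale (SE 0.34, 95% interval -2.49 to -0.95), with an adjusted p of 0.0384 in limma. These levels rest on 19, 31 and 34 reads in the JH libraries and 110, 111 and 112 in the LD libraries. The call was close to its threshold. Leaving out JH1, JH2, LD1, LD2 or LD3 gave adjusted p values of 0.0896, 0.0795, 0.147, 0.127 and 0.122, with log2 fold changes from -1.74 to -1.63, and leaving out JH3 kept the call (adjusted p = 0.0470). Over the other alternatives the adjusted p ranged from 0.00703, with limma voom on recovered reads, to 0.0640. The size of the change depended on the pseudocount, and with a pseudocount of 1 LRAT stood at -0.94, short of the fold limit.

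PDGFRB encodes the receptor for PDGF-BB that recruits pericytes and drives stellate cell growth. It measured 1.94, 1.28 and 2.40 RPKM in JH1 to JH3 and 3.66, 8.15 and 4.91 RPKM in LD1 to LD3. Every LD pig was above every JH pig, but the LD pigs differed among themselves and LD2 was the highest. The means were 1.87 ± 0.564 RPKM in JH and 5.57 ± 2.32 RPKM in LD (SD, n = 3 each). The log2 fold change was -1.49 (SE 0.36), with an adjusted p of 0.0719 in limma, above the threshold. The exact two-sided permutation test gave p = 0.1, the smallest value that 3 against 3 pigs allow. With limma voom on recovered reads (40 to 75 reads in JH, 105 to 260 in LD) PDGFRB passed the threshold, at a log2 fold change of -1.54 and an adjusted p of 0.0403.

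RGS5, a regulator of G protein signaling and the usual marker of pericytes, did not separate the breeds. It measured 2.47, 1.89 and 2.84 RPKM in JH1 to JH3 and 6.54, 1.73 and 4.20 RPKM in LD1 to LD3. The lowest library of all was LD2, the library in which PDGFRB was highest, so the pericyte markers did not share a library order. The log2 fold change was -0.60 (SE 0.44), with an adjusted p of 0.522 in limma, and it was -0.19 without LD1 and -1.11 without LD2.

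ACTA2 encodes alpha smooth muscle actin, the marker of contractile vessel wall cells and of activated stellate cells. It measured 25.1, 13.6 and 12.3 RPKM in JH1 to JH3 and 65.3, 51.3 and 20.1 RPKM in LD1 to LD3. LD1 and LD2 stood above all JH pigs, while LD3 was below JH1, so the groups overlapped. The means were 17.0 ± 7.05 RPKM in JH and 45.6 ± 23.1 RPKM in LD (SD, n = 3 each). The log2 fold change was -1.33 (SE 0.45, 95% interval -2.35 to -0.31), with an adjusted p of 0.171 in limma. Short reads can be shared between actin genes, which was not tested. ACTG2, the gamma smooth muscle actin, measured 1.39 to 11.1 RPKM. ACTB, beta actin, measured 286 to 604 RPKM and was lowest in LD3. The reads behind ACTA2 numbered 133 to 649 per library.

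TAGLN encodes transgelin, an actin-binding protein of smooth muscle. It measured 23.3, 17.9 and 14.0 RPKM in JH1 to JH3 and 79.8, 49.1 and 19.2 RPKM in LD1 to LD3. The library order within LD was that of ACTA2, with LD3 again below JH1. The log2 fold change was -1.22 (SE 0.47), with an adjusted p of 0.215 in limma. CNN1, calponin 1, which binds actin and restrains myosin, measured 2.60, 1.66 and 2.37 RPKM in JH1 to JH3 and 7.35, 6.01 and 1.63 RPKM in LD1 to LD3. Here LD3 was the lowest library of all 6. The log2 fold change of CNN1 was -0.92 (SE 0.51), with an adjusted p of 0.387 in limma.

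MYL9 and TPM2 varied less. MYL9, the regulatory light chain of smooth muscle myosin, measured 12.3, 21.0 and 12.1 RPKM in JH1 to JH3 and 23.9, 26.1 and 13.02 RPKM in LD1 to LD3. JH2 lay above LD3, and the log2 fold change was -0.46 (SE 0.34) with an adjusted p of 0.528 in limma. TPM2, beta tropomyosin, measured 15.1, 16.5489 and 15.9 RPKM in JH1 to JH3 and 24.5, 22.1 and 16.549 RPKM in LD1 to LD3. Its groups were separated only in the last deposited digit, between JH2 and LD3, and its log2 fold change was -0.39 (SE 0.24) with an adjusted p of 0.443 in limma. DES encodes desmin, the muscle intermediate filament that also marks stellate cells. It measured 6.75, 3.96 and 3.92 RPKM in JH1 to JH3 and 8.10, 7.45 and 6.42 RPKM in LD1 to LD3. Only JH1 reached into the LD range, and the log2 fold change was -0.62 (SE 0.28) with an adjusted p of 0.298 in limma.

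**Figure D2:**
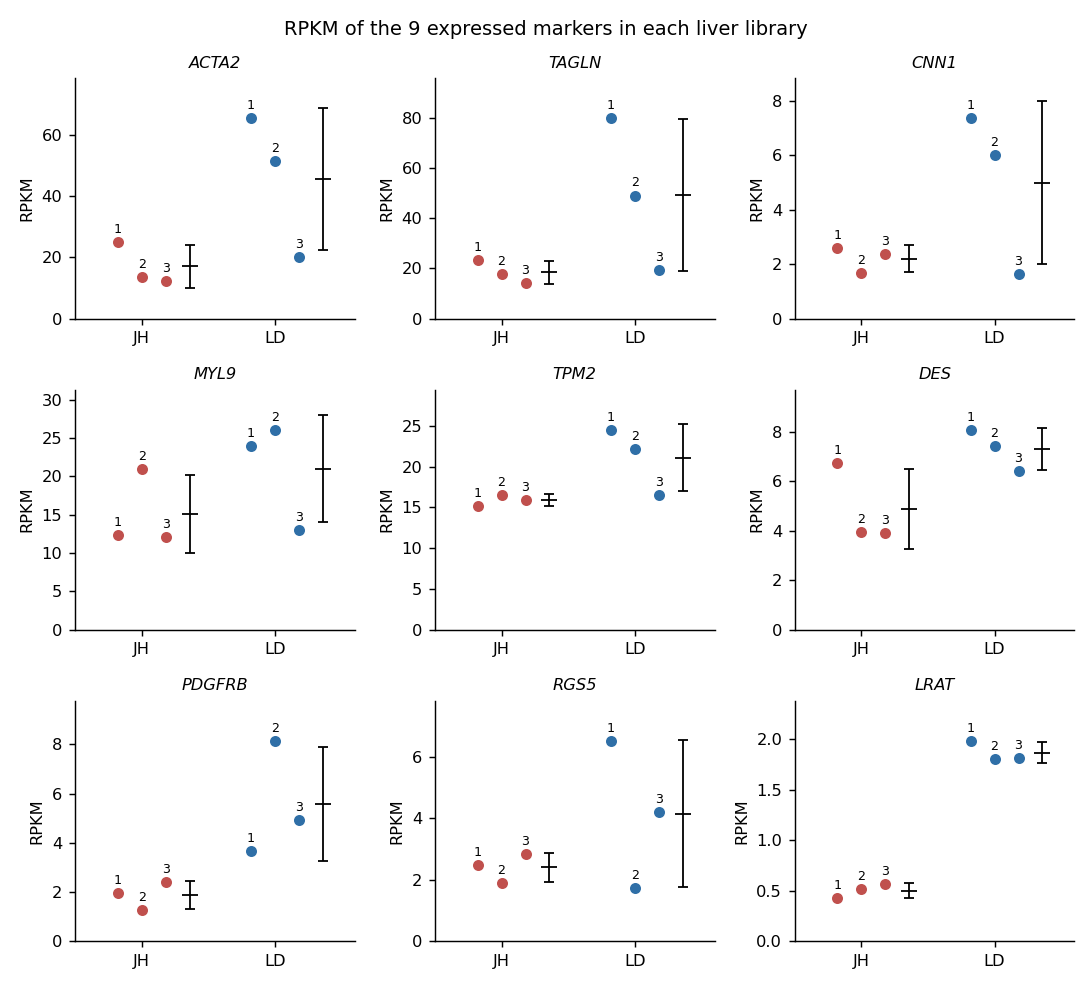
RPKM (y axis, from 0, a scale per panel) of the 9 expressed markers in the 3 JH and 3 LD libraries, each point a pig labelled with its number and the bars the mean ± SD. For LRAT the JH pigs lie between 0.424 and 0.564 RPKM and the LD pigs between 1.80 and 1.99 RPKM, while for ACTA2 LD3 at 20.1 RPKM lies below JH1 at 25.1 RPKM.

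Not all markers varied together within LD. In RPKM, ACTA2, TAGLN, CNN1, TPM2 and DES fell from LD1 to LD2 to LD3, while MYL9, PDGFRB, RGS5 and LRAT did not. Some of these steps rested on near-equal reads. LD1 and LD2 had 335 and 336 reads for TPM2 and 129 and 132 for DES. LD2 and LD3 had 111 and 112 reads for LRAT. For 7 of the 9 tested markers the highest library was LD1, and PDGFRB and MYL9 peaked in LD2. Averaged as log2 RPKM relative to the mean of the 6 libraries, the 6 contractile genes (ACTA2, TAGLN, CNN1, MYL9, TPM2 and DES) stood at 0.93, 0.68 and -0.36 in LD1, LD2 and LD3, and at -0.17, -0.47 and -0.61 in JH1, JH2 and JH3. On the same scale LRAT stood at 1.05, 0.91 and 0.91 in the LD libraries and at -1.18, -0.91 and -0.77 in the JH libraries. The mean of the contractile genes thus spread over 1.28 log2 units among LD pigs and LRAT, on 110 to 112 reads, over 0.14. Single contractile genes differed in this spread. The highest LD library was 1.26 times the lowest for DES and 4.52 times for CNN1. The ratio of ACTA2 to TAGLN stayed between 0.760 and 1.08 in all 6 libraries, although ACTA2 itself varied 5.32-fold. The ratio of ACTA2 to LRAT ranged from 11.1 in LD3 to 59.2 in JH1.

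Leaving out single libraries changed how far the breeds stood apart. Without LD3, JH lay below LD for 8 of 9 markers and for 19.4% of all genes, and the median log2 fold change of the markers was -1.54. Without LD1, the median was -0.54, and 3 markers and 15.2% of all genes were separated in this way. Without JH1 these were 6 markers and 17.5% of all genes. Over the omission of each library in turn, the log2 fold change of LRAT ran from -1.80 to -1.63, that of PDGFRB from -1.75 to -1.18 and that of ACTA2 from -1.84 to -0.99. That of TAGLN was -0.77 without LD1 and -1.79 without LD3, and that of CNN1 -0.52 without LD1 and -1.57 without LD3. MYL9 stood at -0.27 without LD2, -0.72 without JH2 and -0.77 without LD3, DES ran from -0.87 to -0.49 and TPM2 from -0.55 to -0.27.

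**Figure D3:**
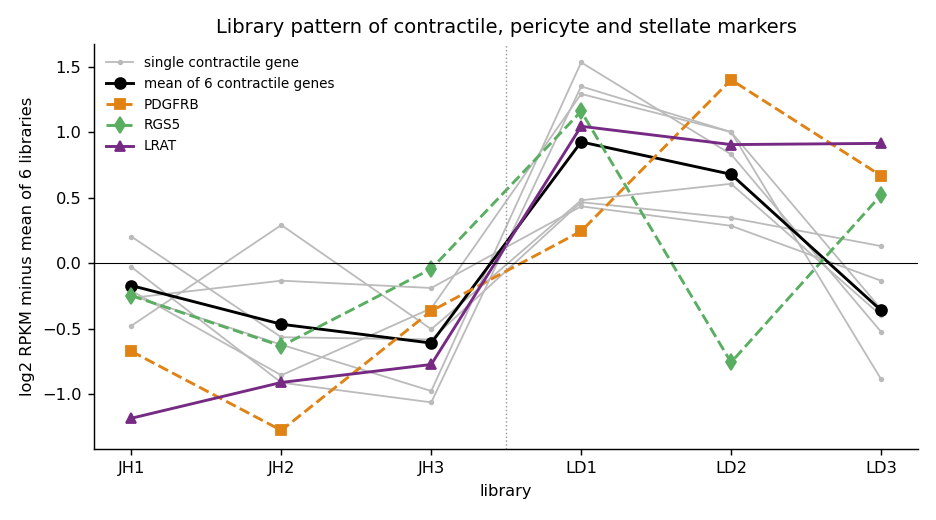
Log2 RPKM minus the mean of the 6 libraries (y axis) for each library (x axis), with grey lines for single contractile genes, a black line for their mean, and colored lines for PDGFRB, RGS5 and LRAT; lines only join the points of a gene, since pigs have no order. LRAT is level across the LD libraries (0.91 to 1.05), whereas the contractile mean runs from 0.93 in LD1 to -0.36 in LD3.

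Per kilobase, the order of the levels was similar in both breeds at its upper end. In JH, TAGLN, ACTA2, TPM2 and MYL9 had mean levels of 18.4, 17.0, 15.9 and 15.1 RPKM, and the ranges of neighbors in this order overlapped. DES followed at 4.88 RPKM, clear of both neighbors, then RGS5, CNN1 and PDGFRB at 2.40, 2.21 and 1.87 RPKM with overlapping ranges, and LRAT lowest at 0.50 RPKM. In LD, TAGLN and ACTA2 averaged 49.4 and 45.6 RPKM, and TPM2 and MYL9 21.1 and 21.0 RPKM. The ranges of these neighbors overlapped, for ACTA2 and TPM2 only through LD3. DES, PDGFRB, CNN1 and RGS5 averaged 7.32, 5.57, 4.997 and 4.16 RPKM, each overlapping the next, and LRAT was again last at 1.87 RPKM.

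Other genes of the contractile apparatus had a median nearer 0 than the 9 tested markers, which include LRAT, PDGFRB and RGS5. The list of 33 further smooth muscle contractile genes also held ACTB, a gene used by every cell. Of these 33 genes, 23 were in the files and 17 were tested. Their log2 fold changes were below 0 for 15 of 17, with a median of -0.36. None was called by limma, and limma voom called none of the 14 it could test. At an unadjusted p below 0.05, 3 were lower, as were 9.51% of all genes. All JH libraries lay below all LD libraries for 7 of the 17 and for 12.5% of all genes. PGM5, a smooth muscle adherens junction protein, measured 3.73, 1.68 and 3.36 RPKM in JH1 to JH3 and 5.95, 6.42 and 5.34 RPKM in LD1 to LD3, a separation of the breeds with a log2 fold change of -1.06 (SE 0.33, adjusted p = 0.138). CNN3, the acidic calponin, also separated them at -0.95 (SE 0.25, adjusted p = 0.0963), and it was called after quantile normalization. ACTG2 did not separate them, with 2.09, 2.19 and 4.003 RPKM in JH1 to JH3 and 11.1, 6.33 and 1.39 RPKM in LD1 to LD3. Its LD order, with LD3 lowest, was that of ACTA2, TAGLN and CNN1.

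The serum response factor axis, which switches contractile genes on, gave 9 tested genes of 14 listed. Of these, 8 had a log2 fold change below 0 (9 after quantile normalization or a shift of libraries to a common median), and the median was -0.41. None was called by limma or by limma voom. At an unadjusted p below 0.05, 2 were lower, as were 9.51% of all genes. All JH libraries lay below all LD libraries for 4 of the 9 and for 12.5% of all genes. MYOCD, the smooth muscle cofactor myocardin, named after its values were seen, was at 0 in every library but LD3, where it measured 0.221 RPKM.

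Among the PDGF ligands, receptors and pericyte genes outside the markers, 16 of 20 listed were tested, and 11 had a log2 fold change below 0, with a median of -0.58. None was called by limma or limma voom. At an unadjusted p below 0.05, 5 were lower and 1 higher in JH, and 9.51% of all genes were lower. All JH libraries lay below all LD libraries for 6 of the 16 and for 12.5% of all genes. EDNRA, the endothelin A receptor of contractile cells, measured 0.580, 0.430 and 0.431 RPKM in JH1 to JH3 and 0.939, 1.83 and 1.54 RPKM in LD1 to LD3. All JH pigs lay below all LD pigs, and the log2 fold change was -1.37 (SE 0.41, adjusted p = 0.127 in limma). PDGFRL, a PDGF receptor-like gene, had a log2 fold change of -1.37 with overlapping groups (adjusted p = 0.386 in limma). RGS16, a G protein regulator related to RGS5, lay on the other side of 0 at 1.12 (adjusted p = 0.267 in limma).

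Stellate cell and retinoid storage genes outside the markers held 1 called gene. Of 33 listed, 21 were tested, 17 had a log2 fold change below 0 and the median was -0.41. All JH libraries lay below all LD libraries for 8 of the 21, as for 12.5% of all genes, and above them for 1. CRABP1, which binds retinoic acid in the cytoplasm, measured 0.329, 0.731 and 0 RPKM in JH1 to JH3 and 15.4, 2.16 and 10.5 RPKM in LD1 to LD3. Its level was low in JH and uneven in LD, and it fell by 4.45 on the log2(RPKM + 0.1) scale (SE 0.87, adjusted p = 0.0370 in limma). The call was lost without JH1, LD1 or LD3 (adjusted p = 0.0689, 0.143 and 0.109) with limma voom (0.0640), with the replicate block (0.0704), with no filter (0.0653) and after quantile normalization (0.0503). With a pseudocount of 1 the log2 fold change of CRABP1 was -2.67. CYP26A1, the enzyme that breaks down retinoic acid, measured 0.650, 12.1 and 9.10 RPKM in JH1 to JH3 and 32.1, 12.8 and 13.1 RPKM in LD1 to LD3. Its groups lay close together apart from JH1 and LD1, and its log2 fold change was -2.01 (SE 0.92, adjusted p = 0.292). LUM, the matrix proteoglycan lumican, was at most 0.333 RPKM in JH and 0.719 to 4.36 RPKM in LD, and its log2 fold change was -2.59 (SE 0.81, adjusted p = 0.143). All JH values of LUM were below the filter of 0.5 RPKM, so LUM was tested only through LD and its direction was fixed by the filter. The size of its change depends on the pseudocount, since JH1 was at 0. LUM is among the 17 genes below 0 and the 8 separated genes of this list. ALDH1A2, which makes retinoic acid and was singled out after its values were seen, ran the other way, at 2.36, 2.26 and 1.96 RPKM in JH1 to JH3 and 0.450, 1.42 and 0.303 RPKM in LD1 to LD3. Its groups did not overlap, and its log2 fold change was 1.72 (SE 0.49, adjusted p = 0.118).

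Markers of other cell types were set beside these results, and their part in them was not tested. Portal fibroblast and mesothelial markers had 5 of 12 genes tested, all 5 with a log2 fold change below 0 and none called by limma or limma voom. At an unadjusted p below 0.05, 9.51% of all genes and 2 of these markers were lower. Their summed level was 51.8 to 76.0 RPKM in JH and 103 to 204 RPKM in LD. FBLN1 alone measured 32.3 to 57.8 RPKM in JH and 58.2 to 147 RPKM in LD. The log2 fold changes of ELN, FBLN1 and THY1 were -1.20, -1.04 and -0.98, and only FBLN1, 1 of the 5 tested, separated the breeds. Bile duct markers had 3 of 8 genes tested, with sums of 7.15 to 16.1 RPKM in JH and 15.3 to 36.8 RPKM in LD. All JH libraries lay below all LD libraries for 2 of the 3 and for 12.5% of all genes. EPCAM, a surface protein of bile duct epithelium, was called, at 1.27, 1.31 and 1.32 RPKM in JH1 to JH3 and 3.69, 5.17 and 3.31 RPKM in LD1 to LD3 (log2 fold change -1.55, adjusted p = 0.0301 in limma); the call was kept only without JH3 among the 6 omissions of a library (adjusted p 0.0435, and 0.0566 to 0.111 for the others). SOX9 and SPP1 stood at -2.07 and -1.11 and were not called.

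Endothelial markers had 11 of 15 genes tested, 10 with a log2 fold change below 0 and none called by limma or limma voom. At an unadjusted p below 0.05, 9.51% of all genes and 2 of these markers were lower. Their sums overlapped, at 196 to 313 RPKM in JH and 246 to 308 RPKM in LD, and KDR, PECAM1 and VWF stood at -0.91, -0.81 and -0.66, with KDR called after quantile normalization. All JH libraries lay below all LD libraries for 4 of the 11 endothelial markers and for 12.5% of all genes. Hepatocyte markers had 11 of 12 tested, 7 below 0 (8 after quantile normalization), with a median of -0.17 and none called by limma. Of these 2 were lower and 1 higher at an unadjusted p below 0.05, namely ALB and TF at -0.67 and -1.13 and APOA1 at 0.90. All JH libraries lay below all LD libraries for 5 of the 11 hepatocyte markers and above them for 1. The hepatocyte sums were 62263 to 73989 RPKM in JH and 75894 to 90520 RPKM in LD. Macrophage and lymphocyte markers had 13 of 15 tested, 10 of them above 0 (9 after quantile normalization), with a median of 0.17. None was called by limma or limma voom, 2 were higher at an unadjusted p below 0.05, and the groups of all 13 overlapped. C1QB, CSF1R and CD79B lay farthest from 0 at 1.76, 1.23 and 0.70, while C1QA and C1QC stood at -0.20 and 0.08. Of 24 striated muscle markers, 20 were in the files and 9 of these were listed at 0 in every library. Their sum was at most 1.53 RPKM in JH and 2.45 RPKM in LD, and the single gene that passed the filter, PYGM, stood at -1.28 and was not called.

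**Figure D4:**
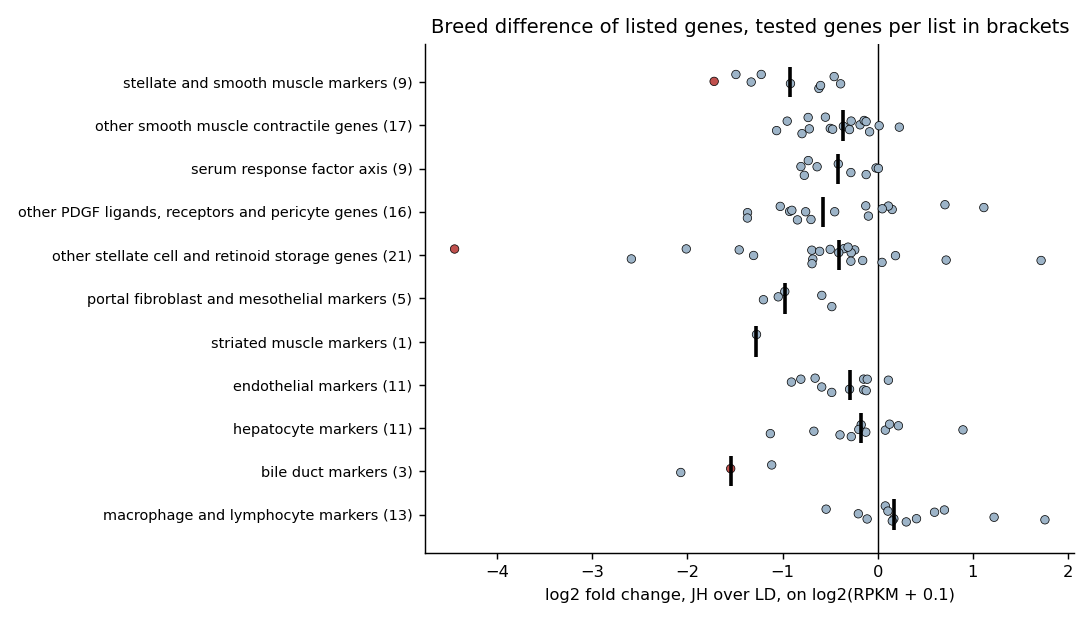
Log2 fold change of JH over LD on the log2(RPKM + 0.1) scale (x axis) for every tested gene of each list (y axis, number tested in brackets), with a point per gene, red for called genes and black bars for list medians. The median is -0.92 for the stellate and smooth muscle markers, -0.98 for the portal fibroblast and mesothelial markers, -0.29 for the endothelial markers and 0.17 for the macrophage and lymphocyte markers.

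The small RNA libraries of the same pigs gave a separate readout. MicroRNA levels were given as RPM, reads scaled to a library total of 10672379 to 13932323 clean reads, and 241 miRNAs were tested on the log2(RPM + 0.5) scale. Of 16 tested miRNAs listed for muscle, mesenchyme, endothelium and hepatocytes, 4 were called lower in JH, while 8.71% of all miRNAs were called lower. The median of all miRNAs was itself -0.30, and 29.9% of all miRNAs lay lower in all JH than in all LD libraries.

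The ssc-miR-143 and ssc-miR-145 precursors are transcribed together, are enriched in smooth muscle and act on the serum response factor pathway. ssc-miR-145-5p measured 786, 854 and 1077 RPM in JH1 to JH3 and 2353, 1661 and 2011 RPM in LD1 to LD3. All LD pigs lay well above all JH pigs, and ssc-miR-145-5p fell by 1.15 on the log2 scale (SE 0.23, adjusted p = 0.0118 in limma). ssc-miR-143-3p, the most abundant of them, measured 28033, 16207 and 17881 RPM in JH1 to JH3 and 41695, 26400 and 32819 RPM in LD1 to LD3. JH1 lay above LD2, and the log2 fold change was -0.72 (SE 0.26, adjusted p = 0.0918). ssc-miR-143-5p and ssc-miR-145-3p, the less abundant arms, had groups that did not overlap, with log2 fold changes of -0.93 (adjusted p = 0.0331, short of the fold limit) and -0.76 (adjusted p = 0.0564). LD3, low for ACTA2, TAGLN and CNN1, was also the lowest LD library for these minor arms, at 82.97 RPM and 130 RPM, but not for the major arms.

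The mesenchymal miRNAs of the miR-199 and miR-214 family, known from fibroblasts and stellate cells, separated the breeds for 5 of 5 tested, and 3 were called. Over all miRNAs, 29.9% lay lower in all JH than in all LD libraries and 8.71% were called lower. ssc-miR-199a-3p measured 3012, 3210 and 4772 RPM in JH1 to JH3 and 6752, 8770 and 8013 RPM in LD1 to LD3, and fell by 1.12 on the log2 scale (SE 0.24, adjusted p = 0.0134 in limma). ssc-miR-199b-3p and ssc-miR-199b-5p fell by 1.18 and 1.09 (adjusted p = 0.0122 and 0.0170), and the latter lost its call with the replicate block (adjusted p = 0.0590). The 3p arms of the miR-199a and miR-199b precursors are near-identical, so their reads cannot be assigned with certainty and are not separate evidence. ssc-miR-199a-5p and ssc-miR-214 had adjusted p values of 0.0420 and 0.0237 with log2 fold changes of -0.92 and -0.86, short of the fold limit. LD3 was not low here: it was the highest library for ssc-miR-199a-5p, ssc-miR-199b-5p and ssc-miR-214.

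These miRNA calls depended on scaling. After the libraries were shifted to a common median, ssc-miR-145-5p stood at -0.75 (adjusted p = 0.0728) and none of the 16 was called, and the whole table went from 21 lower and 2 higher calls to 4 lower and 3 higher. The medians of the smooth muscle and the mesenchymal miRNAs then stood at -0.45 and -0.69, against -0.85 and -1.09 without the shift, and all 9 stayed below 0. Leaving out LD3 also left none of the 16 called (ssc-miR-145-5p at -1.14, adjusted p = 0.0534), and leaving out LD1 ended the call of ssc-miR-145-5p (adjusted p = 0.0541). ssc-miR-199a-3p lost its call without JH1 (log2 fold change -0.99) and ssc-miR-199b-5p without JH3 (-0.95), both for the fold limit.

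Striated muscle and reference miRNAs are given for comparison. ssc-miR-133a-3p measured 5.62, 5.16 and 7.68 RPM in JH1 to JH3 and 20.9, 11.5 and 9.26 RPM in LD1 to LD3, with a log2 fold change of -1.05 (adjusted p = 0.0544 in limma). Of 4 striated muscle miRNAs tested, 3 were below 0 and none was called by limma. ssc-miR-133b and ssc-miR-1 stood at -0.95 and -0.82 and were highest in LD1, while ssc-miR-499-5p stood at 0.22, and at 0.61 after the median shift (adjusted p = 0.0728). The hepatocyte miRNA ssc-miR-122 stood at 0.01 (147073 to 280427 RPM in JH and 174803 to 219414 RPM in LD), and the endothelial ssc-miR-126-3p and ssc-miR-126-5p stood at 0.25 and -0.07. The 3 had overlapping groups, and none was called or passed an unadjusted p of 0.05 in limma.

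**Figure D5:**
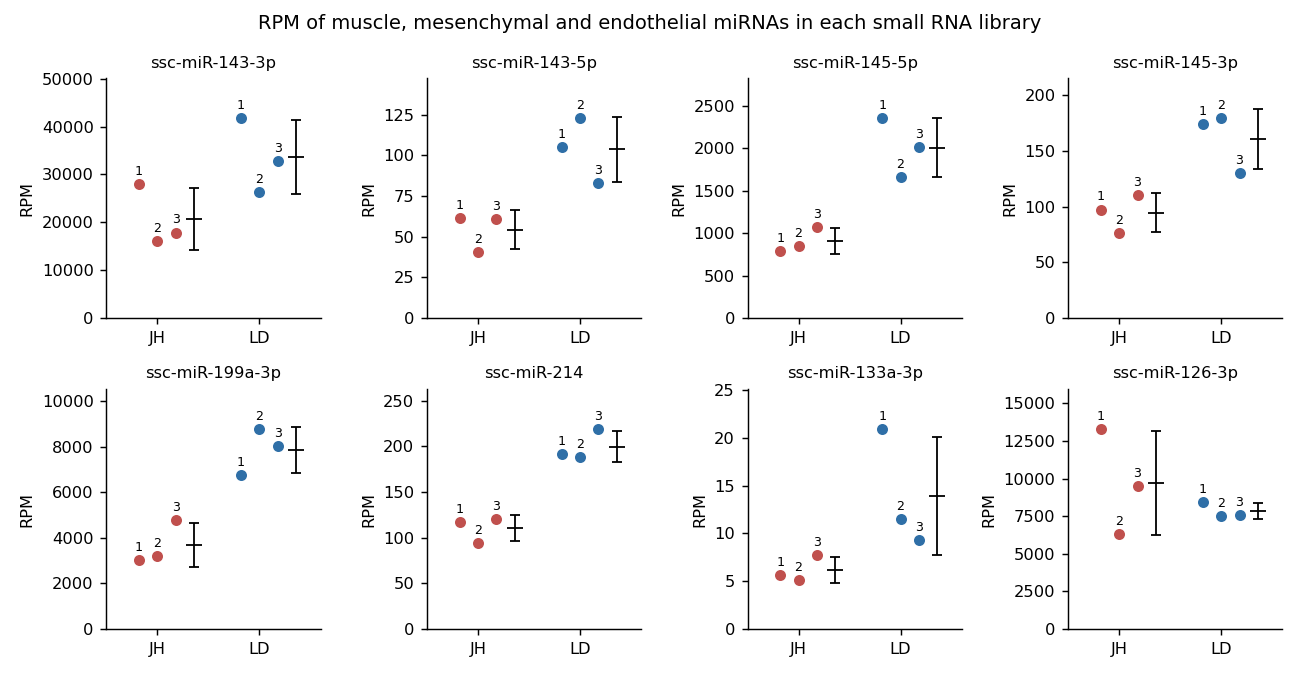
RPM (y axis, from 0, a scale per panel) of 8 miRNAs in the 3 JH and 3 LD small RNA libraries, each point a pig labelled with its number and the bars the mean ± SD. The JH pigs lie below the LD pigs for ssc-miR-145-5p (786 to 1077 against 1661 to 2353 RPM) and ssc-miR-199a-3p, and overlap them for ssc-miR-143-3p and ssc-miR-126-3p.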

How the data were processed

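The authors aligned single-end liver reads to the pig genome (Sscrofa10.2) with TopHat2 2.0.13, used gfold to count reads per gene, and deposited the result as RPKM. For miRNAs the authors deposited RPM values per mature miRNA. The deposited RPKM values gave whole reads for 17298 of 19614 genes above 0 (88.2%, within a relative tolerance of 1.6e-05), which were used for depth and for limma voom only. Log2(RPKM + 0.1) and log2(RPM + 0.5) values were fitted by breed with limma 3.58.1 in R 4.3.3 (trended empirical Bayes, Benjamini-Hochberg adjustment over all genes or miRNAs tested) for genes of at least 0.5 RPKM and miRNAs of at least 1 RPM in at least 3 libraries. The threshold (adjusted p below 0.05, absolute log2 fold change above 1) was the one the study applied to genes; it was used for miRNAs too, where the study took unadjusted p values. The study's own tests need the authors' counts, which were not used here. Pigs were the replicates (n = 3 per breed). Exact two-sided permutation tests were run on single genes. Self-tests on simulated data were run for the read recovery, before the fits, and for limma, after them. Named genes were all markers and, of every other list, each called gene and the 3 tested genes farthest from 0, with ALDH1A2 and MYOCD added after their values were seen. Some of these genes are not reported here. Markers and lists were chosen with earlier results of these data known. Alternatives were other pseudocounts, filters and scalings, limma voom, a replicate block and the omission of each library.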

Additional observations from a re-analysis of the deposited data

How the results depend on the processing

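The log2 fold changes of the 9 tested markers stayed below 0 under the 11 alternatives that change them. The number of markers called lower in JH was 0 with a pseudocount of 1 (LRAT -0.94, short of the fold limit), with no filter on low values, with a filter of at least 1 RPKM and with the replicate block, and 2 (LRAT and PDGFRB) with limma voom on recovered reads; leaving out 1 library gave 0 to 1. The number of markers whose breeds did not overlap was 6 after quantile normalization (12.6% of all genes) and 3 to 8 on leaving out 1 library (15.2% to 19.4% of all genes), and the median log2 fold change then ranged from -1.54 to -0.54. The number of listed miRNAs called was 0 after quantile normalization or with libraries shifted to the same median, and 0 to 5 on leaving out 1 library. The cause of these changes was not tested. Over all genes, 310 were called, against 253 with the replicate block, 200 with no filter and 79 (without LD1) to 406 (without JH3) on leaving out 1 library. Same-numbered pigs of the 2 breeds deviated together with correlations of -0.02, 0.05 and 0.18 over mRNAs and -0.07, -0.32 and -0.09 over miRNAs. Differently numbered pigs gave -0.13 to 0.08 over mRNAs. The numbers were not taken to pair the pigs. With the block, LRAT had an adjusted p of 0.0640 in limma. ACTA2 and TAGLN had 0.0621 and 0.0842 with the block, against 0.171 and 0.215 without it. The block left 3 listed miRNAs called. The fewest reads per library were 19 for LRAT and CNN1 and 28 for RGS5.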
